A study of Mus musculus with 16 samples.

Results

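The cells described here are the cardiopharyngeal progenitors of the second heart field, taken from mouse chimeras in which Stat3 null cells developed beside WT host cells. Members were chosen by the cell type that the authors transferred to each cell from an atlas of mouse gastrulation and early organogenesis. Cells labelled "Cardiopharyngeal progenitors SHF" are called SHF cells below, and cells labelled "Anterior cardiopharyngeal progenitors" are called anterior cells, and the 2 labels were kept apart. Of 37841 cells kept after quality control and removal of doublet calls, 366 were SHF cells and 123 were anterior cells, 489 in all.

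For the chimeras, WT CD1 blastocysts received Stat3 null embryonic stem cells (ESCs) of a CD1 background that carry tdTomato. Embryos of 3 stages, named by embryonic day as E7.5, E8.5 or E9.5, were dissociated and sorted into tdTomato-positive cells (Stat3 null) and tdTomato-negative cells (WT host) before droplet single-cell RNA sequencing. E7.5 and E8.5 each had 2 WT and 2 null libraries, and E9.5 had 4 of each, with the letters A to D as names inside a group. Every null cell descends from the donor ESC line, so loss of Stat3, time in culture and line of origin cannot be told apart. E7.5 and E8.5 libraries came from pooled embryos. The paper also reports a grouping of its E7.5 embryos by size. The 2 E7.5 libraries of a genotype may therefore come from pools that differ in embryo size. Which pool each library came from could not be identified. Tests that include E7.5 treat these libraries as replicates, so their spread may hold a difference in size, which was not tested. At E9.5 the labels give a single embryo per library, but the methods name fewer embryos than there are libraries of a genotype, so p-values measure the spread between libraries, which may be partly technical. Each stage came from its own embryos, so stage cannot be told apart from embryo pool. Per the paper each pool gave a WT and a null sample, but the pairs could not be identified, so the tests leave pairing out.

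SHF cells numbered between 5 and 66 per library, with median depths per cell from 16800 to 55651 unique molecular identifiers (UMIs, each counting 1 captured RNA molecule). No cell barcode was shared between libraries among SHF or anterior cells. Libraries that stood apart were E8.5 null A and null B, which carried opposite patterns of the imprinted genes H19 and Grb10, E9.5 null D, which had more H19 than the other E9.5 null libraries, and E9.5 WT D, whose SHF cells had the highest pharyngeal endoderm marker sum at that stage and the lowest median label score (0.44, the share of the 25 nearest atlas cells that carried the label). Some results that rest on them are given with and without them. Null changes of named genes from E7.5 to E8.5 in SHF cells are mostly given only with both E8.5 null libraries. In anterior cells E8.5 null A is the only E8.5 null library with at least 5 cells, and null stage changes there rest on it.

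The second heart field is a population of pharyngeal mesoderm that lies beside and behind the early heart tube. It adds cells to both poles of the tube, building the outflow tract, the right ventricle and part of the atria, while its anterior, cranial portion also gives rise to muscles of the head and neck. Its cells are kept proliferating and undifferentiated by fibroblast growth factor (FGF), Wnt and Hedgehog signals from neighbouring tissues, while retinoic acid patterns its posterior part and bone morphogenetic proteins (BMPs) promote entry into the myocardium. Isl1 encodes a LIM-homeodomain factor of these progenitors, Tbx1 a T-box factor of the pharyngeal region that is needed for outflow tract growth, and Fgf10 an FGF ligand of the anterior domain. STAT3 is the transcription factor that is phosphorylated below the gp130 receptors of leukaemia inhibitory factor and interleukin 6.

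Levels are given as CPM, the UMIs of a gene scaled to 1e6 UMIs summed over the cells of a label in 1 library. Isl1 in SHF cells was 112 and 71.8 CPM in the E7.5 WT libraries and 76.5 and 94.2 in the null ones, 77.1 and 88.9 against 91.5 and 134 for E8.5 libraries, and 115, 175, 94.7 and 106 against 107, 81.2, 119 and 159 at E9.5. In all other kept cells of the same libraries Isl1 lay between 12.7 and 49.9 CPM. Each SHF library was thus above its own remaining cells, which describes the label and was not tested, since the label was itself derived from expression. Tbx1 in SHF cells lay between 26.9 and 193 CPM, against 2.25 to 8.03 CPM in other cells. Fgf10 was 5.38 to 12 CPM in SHF cells and 5.27 to 7.13 in other cells at E7.5, where 3 of 4 SHF libraries were above their own remaining cells, and 26.7 to 62.3 CPM in SHF cells and 3.06 to 6.17 in other cells later. Isl1 did not set the label apart from cardiac neighbours, since at E9.5 it was 120 ± 31.9 CPM in SHF cells, 127 ± 33.8 in progenitors labelled as first heart field (FHF) and 229 ± 61.3 in cardiomyocytes labelled FHF 1 (SD, n = 8 libraries each).

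**Figure D1:**
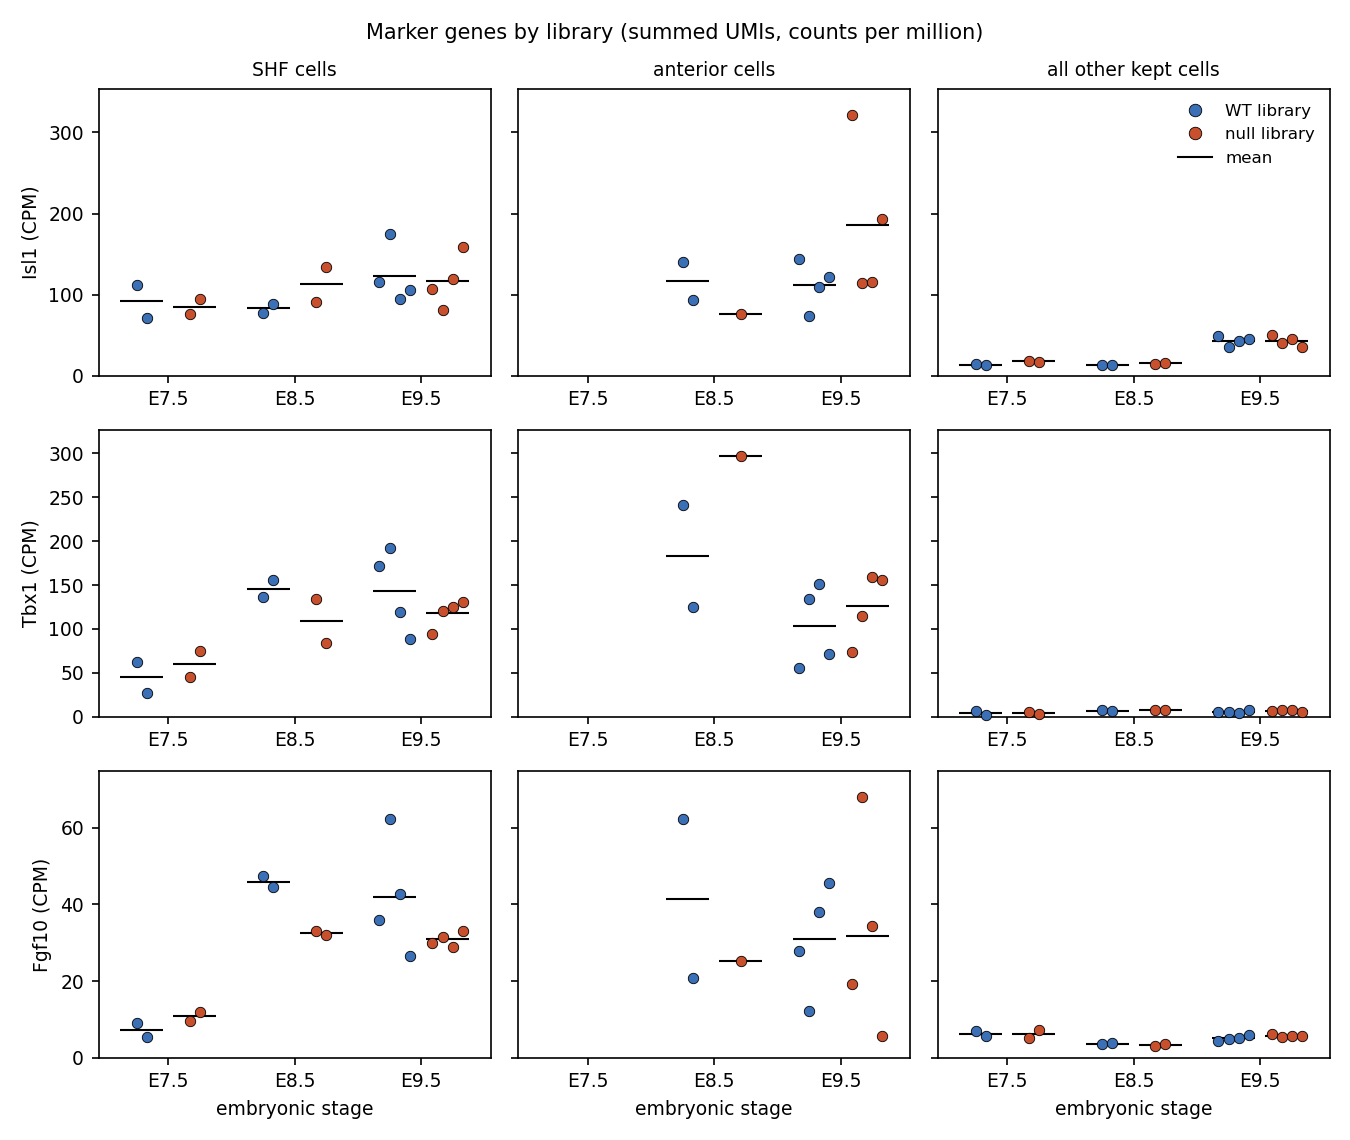
Isl1, Tbx1 and Fgf10 in CPM (y axis, 1 row per gene) by stage (x axis) in SHF cells, anterior cells and all other kept cells (columns), with 1 point per library (blue WT, red null; anterior libraries of at least 5 cells) and a line at the group mean. Tbx1 stays above 26 CPM in every SHF library and below 9 CPM in the other cells, whereas Fgf10 at E7.5 is at 5.38 to 12 CPM in SHF cells and no higher than 7.13 in the others.

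Shares of cells with at least 1 UMI were compared after thinning each cell to 10000 UMIs. Pooled over all cells of a stage and in order of stage, Isl1 was seen in 45.5%, 52.3% and 57.1% of thinned SHF cells, Tbx1 in 28.7%, 61.4% and 51.4%, and Fgf10 in 9.90%, 26.1% and 25.4%. Means over libraries for Isl1 were 63.7%, 45.2% and 61.7% in WT and 43.9%, 63.5% and 51.3% in null, with no steady trend. Fgf10 was seen in 26.4% and 22.1% of thinned cardiomyocytes labelled FHF 1 at E8.5 and E9.5 (2.13% at E7.5). At those later stages it did not set SHF cells apart from them. Fewer pharyngeal endoderm cells had it (4.50% and 7.69%). Tbx1 was seen in 27.6% and 22.1% of those cardiomyocytes and 33.1% and 23.3% of pharyngeal endoderm cells. In cranial mesoderm it was 34.9% and 10.0%. These Tbx1 shares were below those of SHF cells. In erythroid cells, which should lack these genes, thinned shares were 0%, 0.451% and 2.01% for Isl1, 0%, 0.564% and 1.00% for Tbx1, and 9.09%, 2.54% and 0.251% for Fgf10. At E7.5 the erythroid share for Fgf10 rests on 2 of 22 cells (95% exact binomial interval 1.12% to 29.2%), so a difference from SHF cells was not detectable at this depth. Before thinning, the SHF shares were 79.2%, 70.5% and 75.1% for Isl1, 69.3%, 77.3% and 74.6% for Tbx1 and 25.7%, 43.2% and 46.9% for Fgf10. The erythroid shares were then 36.4%, 8.24% and 2.51% for Fgf10, so the SHF share at E7.5 was not above the background, and at most 4.51% for Isl1 and Tbx1.

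Against FHF progenitors at E9.5, which form the left ventricle, SHF cells were high in Tbx1 and low in Tbx5. At E9.5 Tbx1 was 130 ± 35.5 CPM in SHF cells and 115 ± 42.2 in anterior cells (SD, n = 8 libraries each), but 6.72 ± 2.74 in cells labelled as FHF progenitors. At E7.5 the share of thinned cells with a Tbx1 UMI, 28.7% in SHF cells, was 27.0% in cells labelled cranial mesoderm. Tbx5, the T-box factor of the first heart field and of the posterior second heart field, was 15.9 ± 11.1 CPM in SHF cells, 0.948 ± 2.68 in anterior cells and 112 ± 32.1 in FHF progenitors. Gata4, a zinc-finger factor of the heart tube, had no UMI in the anterior libraries of at least 5 cells at E8.5 and E9.5, was 4.42 ± 3.95 CPM in SHF cells at E9.5, and reached 111 ± 35.7 CPM in cardiomyocytes labelled SHF 1. Troponin T (Tnnt2), a sarcomere protein, was 2.17 ± 2.66 CPM in SHF cells at E9.5 and 1460 ± 542 in those cardiomyocytes. SHF cells were not free of cardiomyocyte transcripts. The 24 genes of the cardiomyocyte list summed to 421.5 to 616.5 CPM in E9.5 WT and 355 to 603 in E9.5 null SHF libraries.

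The anterior label was marked by factors of head muscle progenitors at E8.5. Tcf21, a basic helix-loop-helix factor of branchiomeric muscle and epicardium, was 133 ± 58.9 CPM in anterior cells against 49.5 ± 15.1 in SHF cells (SD, n = 3 and 4 libraries). Msc (musculin), another factor of head muscle, was 53 ± 20.4 against 0 in all 4 SHF libraries. Conversely Aldh1a2, the enzyme that makes retinoic acid in the posterior heart field, was 92.9 ± 29.5 CPM in SHF cells and 3.47 ± 6.01 in anterior cells, and Foxf1, a forkhead factor of posterior splanchnic mesoderm, 70.0 ± 17.2 against 1.29 ± 2.24. These are descriptions of the labels. At E9.5 anterior cells had 65.2 ± 30.1 CPM of Tcf21 (n = 8), where SHF cells had 63.8 ± 21.4.

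SHF cells made up a small share of every library. At E7.5 they were 0.692% (5 of 723 cells; 95% exact binomial interval 0.225% to 1.61%) and 1.07% of the WT libraries and 3.04% and 3.06% of the null libraries, so both null values lay above both WT values. At E8.5 the shares were 0.708% and 0.863% in WT and 0.652% and 1.05% in null libraries, and at E9.5 they were 0.455%, 0.719%, 0.998% and 0.986% in WT and 0.555%, 0.788%, 1.76% and 0.970% in null libraries. Genotypes overlapped at both later stages. Tested over cell types with edgeR's quasi-likelihood test, the null to WT difference was 1.38 ± 0.74 (log2, SE) at E7.5 with an adjusted p of 0.469 over 27 types, 0.06 ± 0.54 at E8.5 (adjusted p = 1.00 over 68 types) and 0.36 ± 0.47 at E9.5 (adjusted p = 0.963 over 71 types).

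At E7.5 the denominators differed: cells of tissues outside the embryo proper, to which injected ESCs contribute poorly, were 21.4% and 15.1% of WT libraries but 0.184% and 0% of null libraries. Among the remaining cells SHF cells were 0.880% and 1.26% in WT and 3.04% and 3.06% in null libraries, and the fit without those tissues gave 1.27 ± 0.57 (adjusted p = 0.977). Anterior cells were all but absent at E7.5, with 1 cell in all, in null B (0.278%). They were 0.393% and 0.340% of WT libraries and 0.496% and 0.175% of null libraries at E8.5, and 0.584%, 0.227%, 0.420% and 0.253% against 0.300%, 0.373%, 0.314% and 0.582% at E9.5. Their null to WT difference was -0.01 ± 0.64 at E8.5 and -0.003 ± 0.58 at E9.5, and its change between the stages was -0.03 ± 0.91. For SHF cells that change was 0.28 ± 0.76 (adjusted p = 1.00 for both labels).

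**Figure D2:**
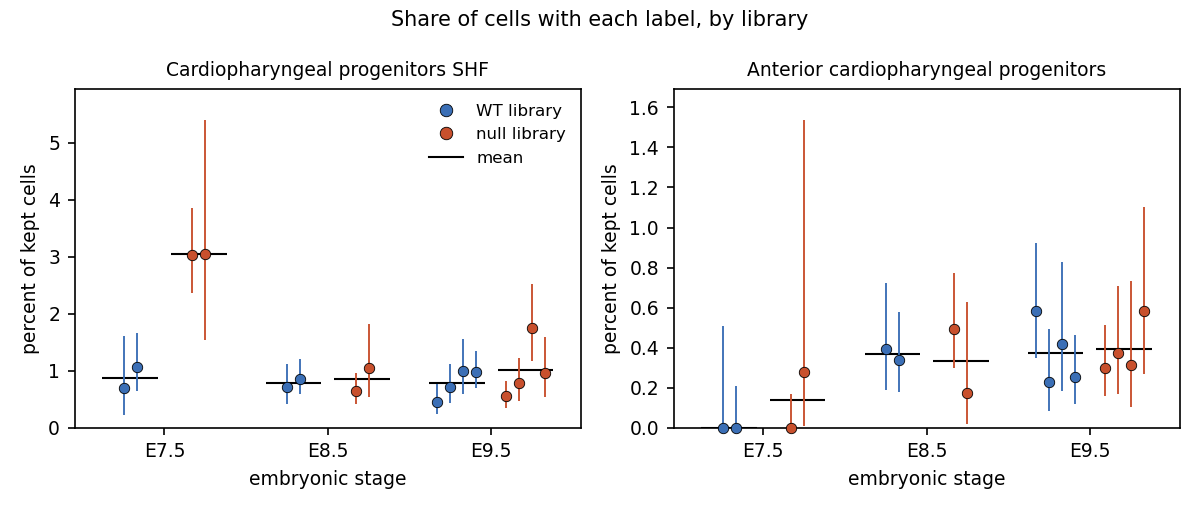
Percent of kept cells per library (y axis) labelled SHF (left) or anterior (right) by stage and genotype (x axis), with 95% exact binomial bars for counting error and a line at the group mean. The 2 null libraries at E7.5 sit at 3.04% and 3.06% for SHF cells, above the WT libraries at 0.692% and 1.07%, while the genotypes overlap at E8.5 and E9.5.

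Genes were tested on summed UMIs with edgeR's quasi-likelihood test and called at a Benjamini-Hochberg adjusted p under 0.05 and a change of more than 2-fold. Between E7.5 and E8.5, Mesp1, Gata4 and Phlda2 fell in SHF cells of both genotypes, while Fgf10, Rdh10, Etv4 and Vcan rose. Of 7344 genes tested, 184 were higher (2.51%) and 94 lower (1.28%) at E8.5 in WT, and 291 higher (3.96%) and 104 lower (1.42%) in null SHF cells. These fits used all 16 libraries with at least 5 SHF cells and share 1 estimate of the spread. Without E7.5 WT B the WT count was 73, with the 5 cells of WT A as the only E7.5 WT library left, and without E8.5 WT A it was 126. Without E7.5 null A or E8.5 null A the null counts were 172 and 145. The WT and null comparisons use separate libraries. They are not independent, since the paper describes each embryo pool as giving a WT and a null sample. Whether the changes from E7.5 to E8.5 differed between genotypes was not tested. A call in 1 genotype alone therefore does not show a difference between them. Markers of other cells moved with stage without overlap, with pharyngeal endoderm markers at 399.7 to 529 summed CPM at E7.5 and 62.2 to 233 at E8.5 and erythroid markers at 5.14 to 28.9 and then 404 to 1340, and their part in these changes was not tested.

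Mesp1, the factor that marks the earliest cardiac and head mesoderm, was at 35.9 and 82.5 CPM in E7.5 WT and 44.7 and 20.6 in E7.5 null SHF cells, and had no UMI at E8.5 in any library. It was therefore at least 24.1-fold lower at E8.5 in WT cells and at least 12.0-fold lower in null cells (against 3 UMIs over the group). Phlda2, an imprinted gene that restrains placental growth, was 1779 and 1857 CPM in E7.5 WT and 993 and 1425 in null libraries, but 7.91 and 14.8 against 5.49 and 32 at E8.5. Its log2 change was -7.22 ± 0.46 (SE, adjusted p = 6.4e-07) in WT and -6.17 ± 0.46 (1.2e-06) in null cells, and no E8.5 library reached the lowest E7.5 value. Gata4 was 53.9 and 35.9 against 38.6 and 36.0 CPM at E7.5 and 3.95, 3.71, 0 and 0 at E8.5, a WT change of -3.34 ± 0.69 (adjusted p = 0.0018).

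Of the 17 SHF regulators listed, 4 rose and 3 fell in WT SHF cells and 1 rose and 4 fell in null cells, beside 2.51% of all genes higher and 1.28% lower in WT and 3.96% and 1.42% in null cells. The list's median change was 0.02 in WT and 0.11 in null cells, beside -0.001 and -0.009 over all genes. Tbx1 was 62.9 and 26.9 CPM in E7.5 WT and 136 and 156 in E8.5 WT libraries, and 45.4 and 75.4 against 134 and 84.4 in null ones. It rose by 2.0 ± 0.46 in WT (adjusted p = 0.017), a call lost without E7.5 WT B, E8.5 WT A or E8.5 WT B (adjusted p = 0.38, 0.060 and 0.084). The null change, 1.09 ± 0.37 (adjusted p = 0.090), was not called. Six2, a homeobox factor of the anterior second heart field, rose in WT by 2.91 ± 0.70 and in null cells by 2.50 ± 0.60, and Foxc2 and Prdm1 rose in WT by 1.74 and 1.76. Hand1 and Smarcd3, early cardiac mesoderm genes, fell in WT, Smarcd3 by 2.28 ± 0.39 on the log2 scale, and Gata6 and Tbx20 fell in null cells. Hand1 differed widely between the E7.5 WT libraries (given with the E7.5 genotype comparison), and its change without WT B is not given. Isl1 was not called in either (0.02 ± 0.35 and 0.48 ± 0.30).

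Of 16 FGF signalling genes listed and tested, 4 rose in WT and none fell, with a median of 0.69 beside -0.001 over all genes, and 6 rose and 1 fell in null cells, with a median of 1.01 beside -0.009. Over all genes 2.51% rose and 1.28% fell in WT and 3.96% and 1.42% in null cells. Fgf10 was 8.98 and 5.38 CPM in E7.5 WT, 47.4 and 44.5 in E8.5 WT, 9.65 and 12.0 in E7.5 null and 32.9 and 32.0 in E8.5 null libraries, with no overlap between stages. Its change was 2.87 ± 0.54 in WT (adjusted p = 0.00058) and 1.73 ± 0.41 in null cells (0.0048). The ETS factors Etv4 and Etv5 and the inhibitor Spry1, which are switched on by FGF signalling, rose by 2.44, 2.67 and 3.26 in WT and by 2.69, 1.63 and 2.02 in null cells. Etv4 went from 0 and 7.18 CPM to 23.7 and 29.6 in WT and from 4.65 and 1.71 to 29.3 and 20.4 in null libraries. In null cells the phosphatase Dusp6 and the receptor-like inhibitor Il17rd also rose, and Fgfr3 fell.

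Of 10 retinoic acid genes tested, 3 rose in WT and 5 in null cells, and none fell, beside 2.51% and 3.96% of all genes higher and with list medians of 1.43 and 1.41. Rdh10, which makes retinaldehyde from retinol, was 8.98 and 10.8 CPM in E7.5 WT and 65.2 and 68.5 in E8.5 WT libraries, and 15.4 and 17.1 against 80.5 and 52.4 in null ones (2.76 ± 0.49 in WT, adjusted p = 0.00027). The retinoic acid binding protein Crabp2 rose by 2.43 in WT and by 2.01 in null cells. Nr2f2, an orphan nuclear receptor of the atrial and posterior field, rose by 2.91 and 1.76.

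Among matrix genes, 2 of 21 tested rose and 1 fell in WT, and 5 rose and 1 fell in null cells, with list medians of 0.44 in both, beside 2.51% of all genes higher and 1.28% lower in WT and 3.96% and 1.42% in null cells. Versican (Vcan), a proteoglycan of the cardiac jelly, was 31.4 and 50.2 CPM in E7.5 WT and 186 and 282 in E8.5 WT libraries, and 65 and 44.5 against 274 and 221 in null ones, a rise of 2.47 ± 0.29 and 2.16 ± 0.22. Sparc, a matricellular protein, fell by 2.02 and 1.53 on the log2 scale. Arg1, which encodes arginase, had no UMI in E7.5 WT SHF cells and 417 and 189 CPM at E8.5, at least 77.8-fold higher. Meox1, a homeobox gene better known from somites, likewise went from 0 to 107 and 61.1 CPM in WT (at least 21.6-fold) and from 3.57 and 3.43 to 58.5 and 69.8 in null libraries.

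**Figure D3:**
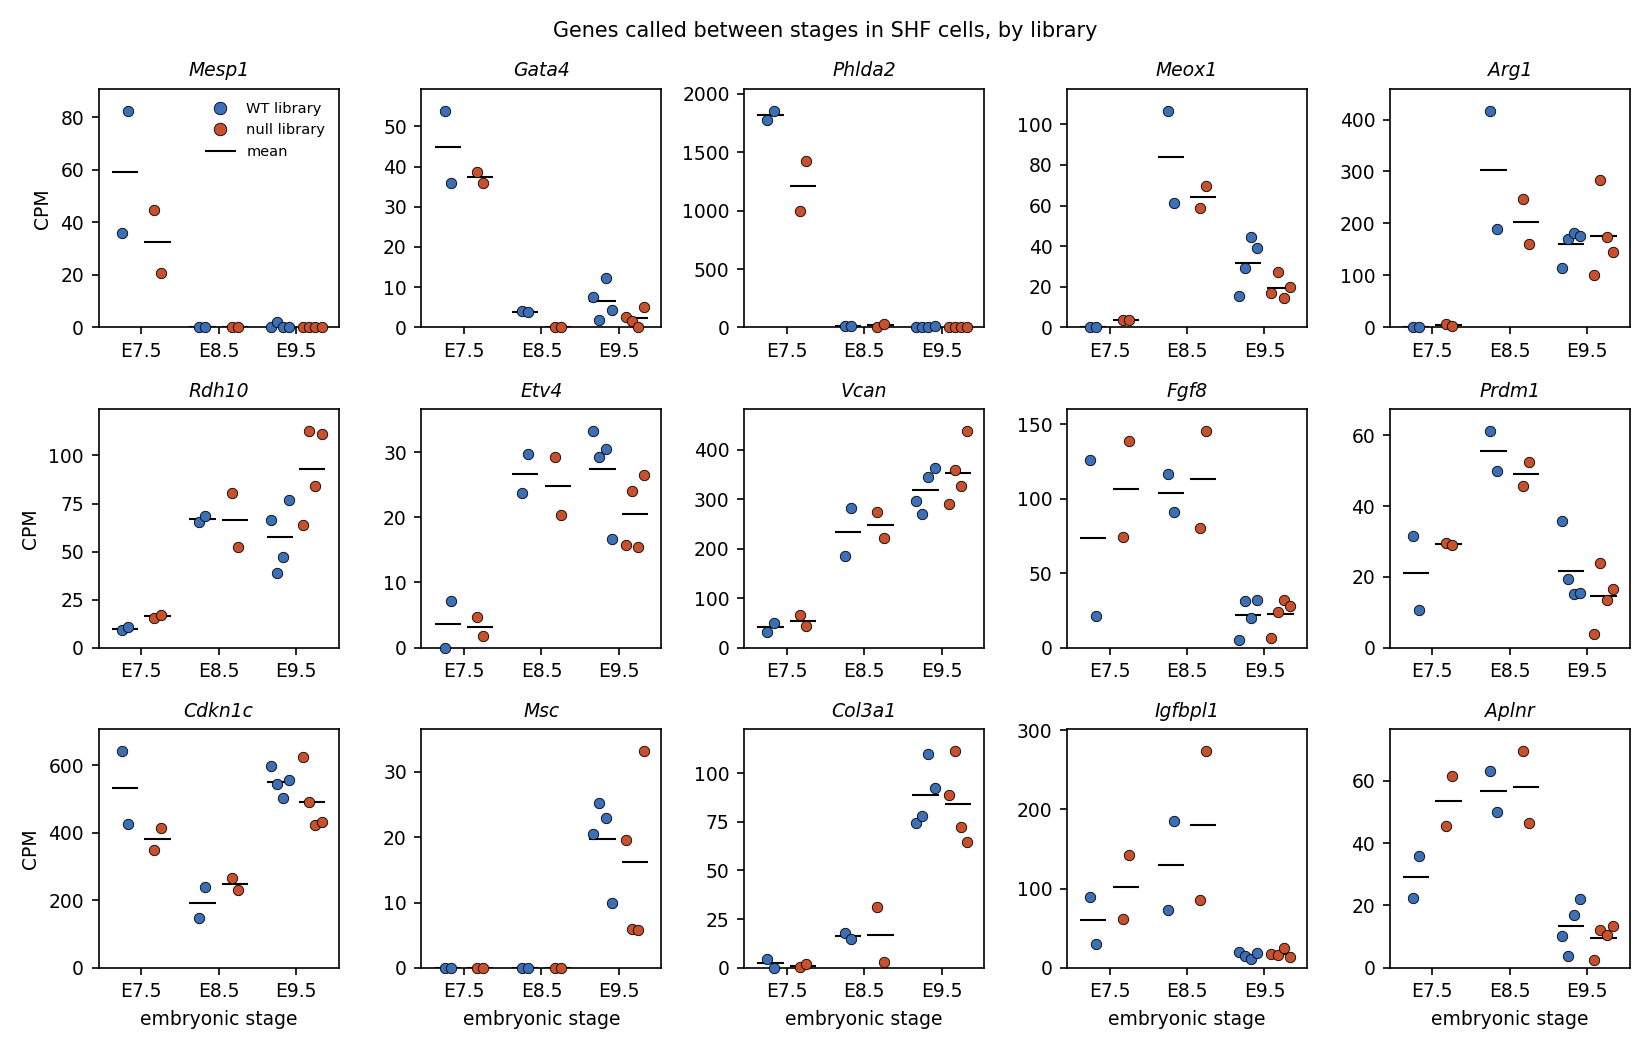
CPM (y axis, own scale per panel, from 0) of 15 genes in SHF cells by stage (x axis), with 1 point per library (blue WT, red null) and a line at the group mean. Mesp1, Phlda2 and Gata4 are high at E7.5, Meox1 and Prdm1 are highest at E8.5, Msc and Col3a1 at E9.5, and Cdkn1c is lowest at E8.5, with WT and null points intermingled in most panels.

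From E8.5 to E9.5 fewer genes were called in the main fits, which used libraries with more than 15 SHF cells (2 WT and 1 null at E8.5, 3 and 3 at E9.5). The order was the same at the minimum of 5 cells used for E7.5. It was reversed in null cells without E8.5 null A, and in WT cells without E7.5 WT B. Of 8051 genes, 66 rose (0.820%) and 42 fell (0.522%) in WT SHF cells, and 12 rose (0.149%) and 37 fell (0.460%) in null cells, where E8.5 is represented by null A alone. That lone library is assumed to vary like the other groups, from which the spread was estimated. With libraries of at least 5 cells, which adds E8.5 null B, the null count was 143 (68 higher and 75 lower) and the WT count 116. With E8.5 null B in place of null A the null count was 215 (82 higher and 133 lower), 27 of the 49 genes among them. The WT balance turned in 3 fits, with 9 higher and 13 lower under DESeq2, 14 and 26 without E8.5 WT B and 35 and 41 without E9.5 WT C, and was 38 and 30 without E8.5 WT A. Without E9.5 WT D, 77 genes were higher and 55 lower in WT. After thinning to 10000 UMIs per cell, 42 of the 108 genes were among the 87 called. Erythroid marker UMIs, which free RNA can carry into droplets, changed between these libraries too. Their summed level was 404 to 1340 CPM in SHF cells at E8.5, 247 to 1866 in E9.5 WT and 12.0 to 96.2 in E9.5 null libraries, and their part in the results was not tested. The cardiomyocyte list summed to 696 to 1487 CPM in SHF cells at E8.5 and 355 to 616.5 at E9.5. Its part was not tested either.

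Fgf8, Meox1, Igfbpl1 and Aplnr fell in both genotypes, and their null calls held with E8.5 null B included and with null B in place of null A. Fgf8, the FGF ligand of the pharyngeal region, was 117 and 90.8 CPM in E8.5 WT and 80.5 and 146 in E8.5 null SHF cells, and 5.12, 31.1, 19.9 and 32.2 in E9.5 WT and 6.54, 24.1, 31.9 and 28.2 in E9.5 null cells. No E9.5 library reached the lowest E8.5 value. The change was -2.03 ± 0.35 in WT (adjusted p = 0.0037, and 0.068 without E8.5 WT A) and -2.01 ± 0.46 in null cells (0.045, and up to 0.094 with 1 library left out). Meox1 fell by 1.28 and 1.76 on the log2 scale, to between 14.5 and 44.3 CPM.

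Igfbpl1 encodes an insulin-like growth factor binding protein homologue and Aplnr the apelin receptor. Igfbpl1 was 73.1 and 185 CPM in E8.5 WT and 10.7 to 20.5 in E9.5 WT libraries (-3.22 ± 0.38), and 86.0 and 274 against 13.3 to 25.1 in null ones (-2.21 ± 0.46). Aplnr fell by 1.99 and 3.13 on the log2 scale. Among SHF regulators Foxc2 and Prdm1 fell in WT by 1.56 and 1.89 on the log2 scale of 14 tested, beside 0.522% of all genes lower, with a list median of -0.20 beside 0.02 over all genes, and none of the 14 was called in null cells (median -0.37). Isl1, Tbx1 and Fgf10 were not called in WT (0.40 ± 0.25, -0.34 ± 0.27 and -0.29 ± 0.31) or in null cells (0.05 ± 0.31, -0.36 ± 0.35 and -0.26 ± 0.43). Tbx1 at E9.5 was 171, 193, 119 and 88.9 CPM in WT and 94.1, 120, 126 and 131 in null libraries, and Fgf10 was 35.8, 62.3, 42.8 and 26.7 against 30.1, 31.6, 29.0 and 33.2.

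Msc was first seen in SHF cells at E9.5. It had no UMI at E8.5 and was 20.5, 25.3, 22.9 and 10.0 CPM in E9.5 WT and 19.6, 6.01, 5.79 and 33.2 in null libraries, at least 6.23-fold higher than at E8.5 in WT.

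Of 22 matrix genes tested, 4 rose and 1 fell in WT, beside 0.820% of all genes higher and 0.522% lower, with a median of 0.27 beside 0.02 over all genes. Type III collagen (Col3a1) went from 17.8 and 14.8 CPM to 74.2, 77.8, 110 and 92.2 in WT, a rise of 2.37 ± 0.32 (adjusted p = 2.6e-05). Nidogen 1 (Nid1), a basement membrane link protein, Col2a1 and Sparc rose by 4.42, 1.65 and 1.23, and Hapln1, the hyaluronan link protein, fell by 1.72 on the log2 scale. Cdkn1c, an imprinted cell cycle inhibitor, rose by 1.31 ± 0.17, from 146 and 239 CPM to 598, 545, 504 and 555. The ETS factor Ets1 rose by 1.48 and the neural and progenitor filament gene Nes by 1.21. The summed level of 9 neural crest markers, Ets1 among them, was 2.91 to 56.7 CPM in SHF cells at E8.5 and 76.3 to 117 at E9.5, and that of 8 neural markers, Nes among them, 26.2 to 102 and 154 to 240, and their part in these rises was not tested. In null cells no matrix gene was called. Whether WT and null cells differed in these stage changes was tested directly, and only H19, Cwc22 and Golga3 were called (given with the genotype comparisons).

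Of the 22 glycolysis and hypoxia genes listed, 2 fell and none rose in WT SHF cells, with a median change of -0.66 beside 0.02 over all genes, and 5 fell and none rose in null cells, with a median of -0.95. Over all genes 0.522% fell in WT and 0.460% in null cells. Pgk1, the phosphoglycerate kinase of glycolysis, was 1214 and 1375 CPM in E8.5 WT and 1414 and 1414 in E8.5 null libraries, and 565, 580, 756 and 664 in E9.5 WT and 536, 717, 826 and 768 in E9.5 null libraries. It fell by 1.1 ± 0.18 on the log2 scale in WT (adjusted p = 0.0055) and by 1.15 ± 0.21 in null cells (0.025). The calls were lost without E8.5 WT B in WT (adjusted p = 0.083) and without E9.5 null B in null cells (0.082). E7.5 libraries had 1100, 1062, 1030 and 788 CPM.

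Bnip3, a mitochondrial protein induced by low oxygen, was 109 and 117 CPM in E8.5 WT, 126 and 119 in E8.5 null, 69.1, 40.9, 79.4 and 51.1 in E9.5 WT and 43.1, 46.6, 65.6 and 54.8 in E9.5 null SHF cells. It fell by 1.12 ± 0.24 in WT (adjusted p = 0.0092) and by 1.38 ± 0.29 in null cells (0.015). After thinning all cells to 10000 UMIs the WT change was -0.90 with an adjusted p of 0.18, and the call was also lost without E8.5 WT A, E8.5 WT B or E9.5 WT B (adjusted p = 0.063 and 0.16, and a change of -0.97). The glucose transporters Slc2a3 and Slc2a1 and the phosphofructokinase Pfkl fell in null cells, by 3.07, 1.31 and 1.12 on the log2 scale. With E8.5 null B in place of null A these changes were -2.47, -1.40 and -0.54, and that of Pfkl was not called (adjusted p = 0.27). Ldha, lactate dehydrogenase A, was 2540 to 2803 CPM in the 4 E8.5 libraries and 1073 to 1685 in the 8 E9.5 libraries, without overlap, but its changes (-1.0 ± 0.22 and -1.12 ± 0.27) had adjusted p-values of 0.062 and 0.15.

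The promoters of the only pair of listed genes that fell in WT SHF cells are shown because both are textbook targets of hypoxia-inducible factor. They run from 250 bases before to 50 after the start annotated by RefSeq on GRCm38.p6, as 1 run each from 5′ to 3′ on the gene's strand. Capitals mark every ACGTG or GCGTG, the core of the hypoxia response element, on either strand. Pgk1 is on chrX:106186850-106187149 (plus strand) with 2 cores, and Bnip3 on chr7:138909457-138909756 (minus strand) with 5, of which 2 overlap in CACGTG, a core on each strand.
Pgk1: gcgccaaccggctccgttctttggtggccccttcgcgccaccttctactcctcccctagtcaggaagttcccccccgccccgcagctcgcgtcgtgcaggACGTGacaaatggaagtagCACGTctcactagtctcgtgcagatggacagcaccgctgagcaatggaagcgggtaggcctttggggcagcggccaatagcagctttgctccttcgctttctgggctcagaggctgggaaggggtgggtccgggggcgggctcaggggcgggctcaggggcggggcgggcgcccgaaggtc
Bnip3: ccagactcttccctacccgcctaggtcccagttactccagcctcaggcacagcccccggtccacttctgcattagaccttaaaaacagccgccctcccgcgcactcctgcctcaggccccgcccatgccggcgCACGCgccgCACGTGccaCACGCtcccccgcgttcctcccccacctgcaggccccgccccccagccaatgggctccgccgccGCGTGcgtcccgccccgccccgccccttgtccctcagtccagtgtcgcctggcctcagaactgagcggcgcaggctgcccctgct
A core occurred in 14380 of 32851 promoter windows of this length (43.8%) and in 25 of the 33 windows of the listed genes (75.8%), some of which have several starts. A match is a stretch of letters and not a measured binding site.

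**Figure D4:**
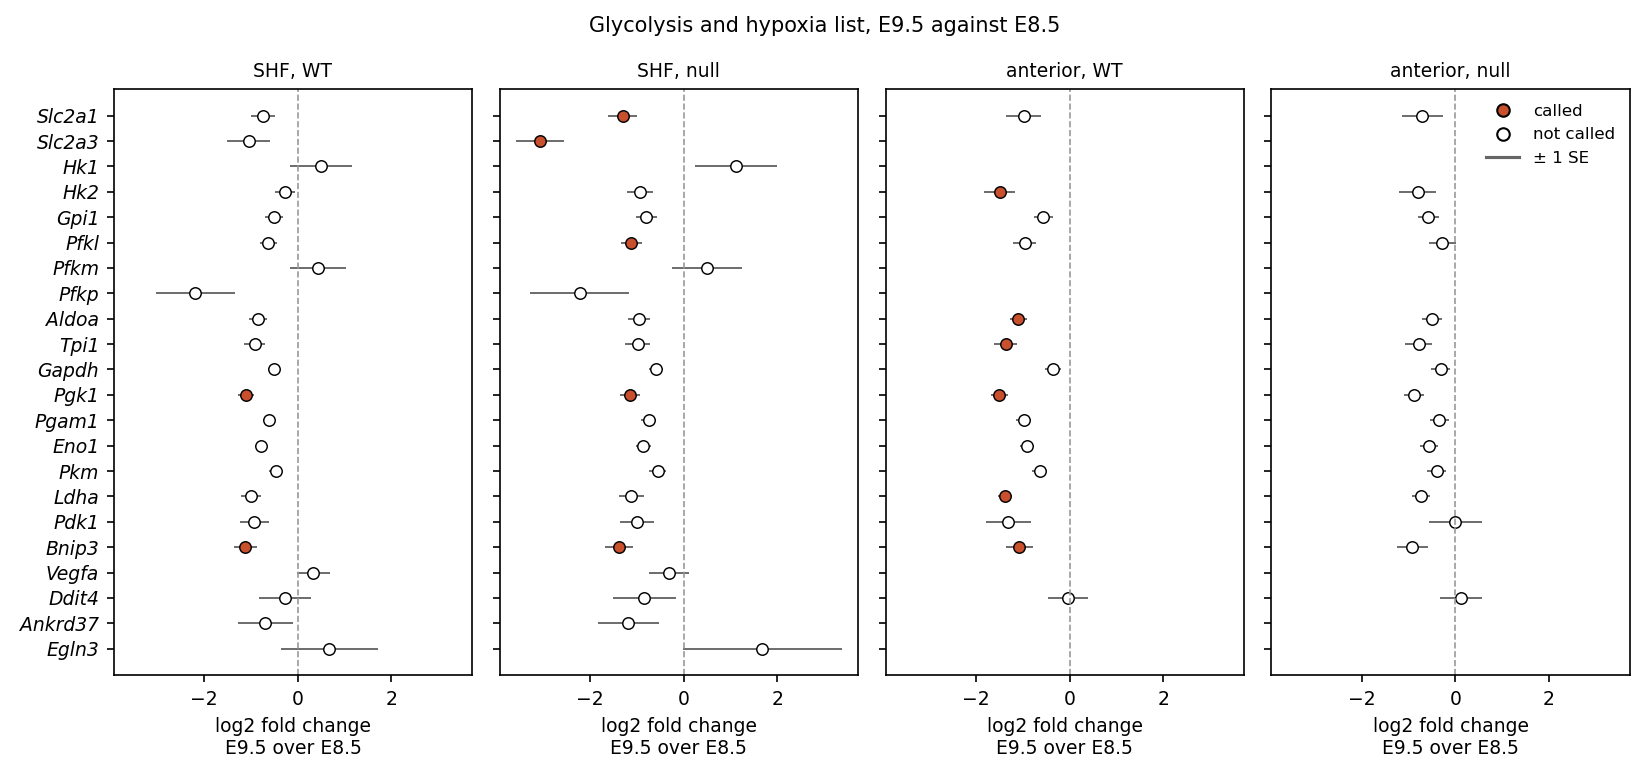
Log2 change from E8.5 to E9.5 (x axis, with 1 SE bars) of the listed glycolysis and hypoxia genes (y axis) in WT and null SHF and anterior cells (panels), with called genes filled. In WT anterior cells all 15 tested genes lie below 0 and 6 are called, and in SHF cells 2 of 22 are called in WT and 5 of 22 in null cells.

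In libraries of at least 5 anterior cells (2 WT and 1 null at E8.5, 4 and 4 at E9.5), 59 of 5520 genes rose (1.07%) and 38 fell (0.688%) in WT and 24 rose (0.435%) and 16 fell (0.290%) in null cells. E8.5 null A is again the only null library of its stage and is assumed to vary like the other groups, so each null change in these cells rests on it. The WT count was 26 when E8.5 WT B was left out and 55 without E8.5 WT A. Other markers moved with stage as well, and their part in the changes was not tested. Summed erythroid markers were 1141 to 1445 CPM in E8.5 WT, 190 to 986 in E9.5 WT, 1204 in E8.5 null A and 17.2 to 54.9 in E9.5 null anterior cells. Neural crest markers, Ets1 among them, were at 15.6 to 19.4 CPM and then 101 to 171 in WT, and 29.5 and then 72.2 to 116 in null libraries. The list of somitic and cranial mesoderm was 72.9 to 73.8 and then 81.1 to 400 CPM in WT, and 128 and then 63.5 to 251 in null libraries. The cardiomyocyte list fell without overlap, from 583 to 677 CPM to between 246 and 483.5 in WT. In null libraries it went from 663 to between 306 and 499. Of 15 glycolysis and hypoxia genes tested, 6 fell in WT (median -0.98 beside 0.01 over all genes), and the null median was -0.56 beside 0.03. Pgk1 was 1522 and 1750 CPM in E8.5 WT and 652, 502, 747 and 547 in E9.5 WT anterior cells (-1.50 ± 0.18, adjusted p = 1.7e-06), and 1280 in E8.5 null A and 524, 663, 843 and 843 in the null libraries at E9.5 (-0.88 ± 0.21, below the 2-fold limit). Ldha was 2245 and 2870 CPM and then 1280, 881, 1054 and 938 in WT (-1.38 ± 0.16), and 2074 and then 1045, 1406, 1350 and 1348 in null libraries (-0.74 ± 0.20). Hexokinase 2 (Hk2), triosephosphate isomerase (Tpi1), aldolase A (Aldoa) and Bnip3 fell in WT by 1.49, 1.36, 1.09 and 1.07 on the log2 scale.

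Hoxb4 and Hoxb5, which pattern the hindbrain and trunk, rose in WT. Hoxb4 was 3.88 and 0 CPM in E8.5 WT and 185, 55.1, 60.7 and 96.3 in E9.5 WT anterior cells, a rise of 5.29 ± 1.08, and Hoxb5 went from 0 to 36.6, 42.8, 53.1 and 25.3 (at least 5.92-fold). In E9.5 null libraries Hoxb4 was 64.3, 102, 38.7 and 40.4 CPM and Hoxb5 25.7, 29.7, 25.8 and 20.2. Ets1 was 0 and 10.4 CPM in E8.5 WT and 101, 159, 91.0 and 86.2 in E9.5 WT libraries, a rise of 4.36 ± 0.66. The imprinted genes Dlk1, Cdkn1c and Mest rose in WT by 1.93, 2.13 and 1.44, and Gas1, a Hedgehog co-receptor, rose in both genotypes, by 1.45 and 1.41.

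Cdkn1c was 381 and 260 CPM in E8.5 WT and 1638, 930, 2066 and 1399 in E9.5 WT anterior cells. E8.5 null A had 893 and the E9.5 null libraries 717, 1070, 684 and 1071 (-0.06 ± 0.38, not called), and whether the stage change differed between genotypes was not tested in anterior cells. Myosin light chain 4 (Myl4), an embryonic atrial and muscle gene, fell in both genotypes, from 38.8, 125 and 114 CPM at E8.5 to 2.15, 0, 7.58 and 5.07 in WT and 3.21, 4.25, 4.30 and 0 in null libraries (-4.35 ± 0.64 and -5.25 ± 0.65). Etv2, the driver of endothelial fate, was 15.5 and 182 CPM in E8.5 WT and 4.30, 0, 3.79 and 0 in E9.5 WT libraries, and its call (-5.05) rests on E8.5 WT B, without which the gene was not tested, and where summed endothelial markers were 380 CPM against 81.6 in E8.5 WT A and 55.1 to 148 in E9.5 WT. In null cells the head muscle factor Msc fell by 4.29, from 75.8 CPM in E8.5 null A to 0, 8.49, 8.60 and 0 at E9.5, while E9.5 WT libraries held 19.4, 73.4, 15.2 and 0. Meis1, Cxcl12 and the receptor Cntfr rose in null cells by 2.45, 2.86 and 3.34.

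Stat3 itself was sparse in these cells. SHF cells held 2, 2, 2, 0, 4, 1, 4 and 8 Stat3 UMIs in the WT libraries, in order of stage, and 1, 0, 0, 0, 0, 0, 4 and 2 in the null ones. At E9.5 that is 10.2, 1.95, 6.11 and 8.89 CPM in WT and 0, 0, 3.86 and 3.32 in null SHF cells, and 4.30, 0, 11.4 and 20.3 against 0, 0, 0 and 2.89 in anterior cells. In all other cells Stat3 was 6.18 to 9.31 CPM in WT and 1.20 to 2.54 in null libraries, lower in every null library. 3′ reads can come from exons outside a deletion, so residual UMIs do not check the deletion.

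Few genes separated null from WT cells. At E9.5, 3 of 6957 genes were higher (0.0431%) and 3 lower (0.0431%) in null SHF cells (WT B, C and D against null A, B and C). Of 14 SHF regulators, 15 FGF, 12 BMP, 16 Wnt, 7 Hedgehog, 8 retinoic acid and 8 JAK-STAT genes tested, none was called in edgeR's test, and 374 genes of the whole table had an unadjusted p under 0.05. The count of 6 was 12 without null C, 11 without WT B, 4 without WT C and 8 without WT D. It was 3 with libraries of at least 5 cells, and also 3 when those libraries were limited to cells with a label score over 0.5. Isl1, Tbx1 and Fgf10 differed by -0.25 ± 0.20, -0.19 ± 0.25 and -0.48 ± 0.28. The sign for Tbx1 changed after thinning (0.05) and without WT B (0.13), and that for Isl1 changed without WT B (0.03).

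H19, an imprinted noncoding RNA expressed from the maternal chromosome, was 770, 907, 941 and 951 CPM in WT and 5.23, 10.5, 6.76 and 274 in null SHF cells at E9.5. The log2 difference over the libraries fitted was -6.98 ± 0.18 (adjusted p = 4.5e-22). This SE was derived from the test statistic and can understate counting error, since null libraries held few UMIs of H19 and Grb10. With WT A and null D included it was -3.83 and not called (adjusted p = 0.69), and null D stood far from the other null libraries. Grb10, an imprinted adaptor that restrains growth, was 443, 477, 368 and 427 CPM in WT and 2.61, 0, 9.65 and 3.32 in null SHF cells, a difference of -6.41 ± 0.30 (adjusted p = 4.9e-09), and of -6.53 with all 8 libraries. Cwc22, a spliceosome factor, was 30.7, 37.0, 38.2 and 32.2 CPM in WT and 234, 182, 208 and 237 in null cells, higher in null by 2.54 ± 0.18 (adjusted p = 6.6e-11) and by 2.60 with all 8 libraries.

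The other 3 calls were of cell cycle and histone genes. Pttg1 (securin) was 187, 156, 147 and 189 CPM in WT and 70.6, 57.1, 83.0 and 163 in null SHF cells (-1.22 ± 0.17, adjusted p = 0.00012). Hist2h2ac was 28.1, 35.0, 29.0 and 50 against 148, 79.7, 131 and 46.5 CPM (1.60 ± 0.23, 0.0010), and Hist1h3e 40.9, 35.0, 19.9 and 26.7 against 73.2, 43.6, 74.3 and 31.5 (1.26 ± 0.26, 0.035). For each of them null D lay within the range of the WT libraries, and with it and WT A included none of the 3 was called (adjusted p = 0.69, 0.68 and 0.64). Histone transcripts without poly(A) tails are captured unevenly, and members of these clusters share sequence, so both histone values are uncertain. The S phase and G2/M lists, of 24 and 25 genes, had medians of 0.03 and -0.01 with no call.

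Igf2, the growth factor imprinted in the opposite direction beside H19, was 297, 331, 371 and 308 CPM in WT and 843, 597, 446 and 474 in null SHF cells at E9.5, so that all null values lay above all WT values, but the difference of 0.87 ± 0.20 was not called (adjusted p = 0.36). At E8.5 it was 221 and 287 in WT and 492 and 556 in null cells, and was the only gene called of 5648 (0.0177% higher, 0% lower), at 1.05 ± 0.19 (adjusted p = 0.023). DESeq2 called none there, and the call held in 1 of the 4 fits with a library left out (1.18 without null A, against 0.92 without null B, 0.88 without WT A and 1.27 with an adjusted p of 0.062 without WT B). At E8.5 the null libraries disagreed on imprinted genes. H19 was 530 and 821 CPM in WT, 178 in null A and 5.82 in null B, while Grb10 was 249 and 330 in WT, 12.8 in null A and 253 in null B. Other cells of the same libraries showed the same split, with 245 and 22.7 CPM of H19 and 12.6 and 262 of Grb10, so the split was also seen outside the label. Without null A 37 genes were called, without null B 11, without WT A none and without WT B 2.

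At E7.5, 1 of 5887 genes was higher (0.0170%) and 7 lower (0.119%) in null SHF cells. Grb10 (328 and 357 CPM in WT, 30 and 5.14 in null), H19 (323 and 398 against 59.0 and 30.8), Pusl1, Rhox5, Wfdc2, Hand1 and Glo1 were lower, by 3.86, 2.85, 2.22, 2.07, 1.55, 1.52 and 1.32 on the log2 scale, and Cwc22 was higher by 1.20. Hand1 was 18 and 136 CPM in WT and 33.2 and 27.4 in null cells, so its libraries overlap and its call rests on WT B, without which the difference was 0.82. Rhox5, an X-linked homeobox gene of extraembryonic tissues, was 40.4 and 32.3 against 8.58 and 6.85 CPM in SHF cells and 346 and 227 against 3.39 and 1.1 in the other cells of these libraries. Only Grb10 and H19 were also called by DESeq2. Grb10 and H19 were also the only genes to keep their call with each library left out in turn, while Pusl1, Rhox5 and Wfdc2 lost theirs in all 4 such fits. Without null A 17 genes were called, 2 of the 8 among them, and without WT B 4.

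In anterior cells at E9.5 (4 libraries of each genotype), 2 of 3707 genes were higher (0.0540%) and 4 lower (0.108%) in null cells. H19 was 932, 985, 747 and 948 CPM in WT and 0, 4.25, 8.60 and 8.66 in null cells (-7.30 ± 0.28), Grb10 671, 581, 573 and 669 against 41.8, 4.25, 4.30 and 2.89 (-5.44 ± 0.36), and Cwc22 45.2, 36.7, 41.7 and 35.5 against 212, 123, 86.0 and 159 (1.82 ± 0.28). These 3 genes kept their call under each alternative run for anterior cells. Null D, which was high in H19 in SHF cells, was not high here, but its 8.66 CPM is at the floor of 3 counts. In all other cells H19 was 111.9 CPM in null D and 14.42, 27.05 and 17.98 in null A, B and C. Csnk2a1, a casein kinase subunit, was 75.3, 128, 87.2 and 142 CPM in WT and 54.6, 38.2, 34.4 and 31.8 in null cells (-1.37 ± 0.28), and Glo1, the methylglyoxal-detoxifying enzyme, 256, 147, 212 and 152 against 73.9, 102, 129 and 83.7 (-1.08 ± 0.22). Fjx1, a four-jointed homologue, was 25.8, 36.7, 37.9 and 35.5 against 70.7, 123, 98.9 and 75.1 (1.44 ± 0.29). Adjusted p was 0.019 for each of the 3, and DESeq2 called none of them. In all other cells at E9.5, Glo1 was 232.4, 111.5, 239 and 107.5 CPM in WT and 103.8 to 115.1 in null libraries. There WT B and WT D lay within the null range. Csnk2a1 was 76.81 to 99.74 CPM in WT and 49.91 to 52.78 in null libraries, without overlap. Fjx1 overlapped, at 42.29 to 50.56 against 42.18 to 52.18. Without WT C 3 genes were called. Summed erythroid markers, given above, did not overlap between these WT and null libraries, while the somitic and cranial mesoderm list did, and their part was not tested.

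Igf2 was also higher in null anterior cells, at 778, 607, 602 and 730 against 366, 502, 341 and 324 CPM, with a difference of 0.83 ± 0.15 (adjusted p = 0.0030) that fell short of the 2-fold limit. Isl1 was 144, 73.4, 110 and 122 CPM in WT and 322, 115, 116 and 194 in null anterior cells (0.68 ± 0.31, adjusted p = 0.93). All 21 G2/M genes tested had values above 0 in anterior cells, with a median of 0.69 beside 0.009 over all genes, but none was called. Mki67, a proliferation marker, had means of 122 CPM in WT and 240 in null cells (1.01 ± 0.29, adjusted p = 0.40). The 22 S phase genes had a median of -0.16.

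**Figure D5:**
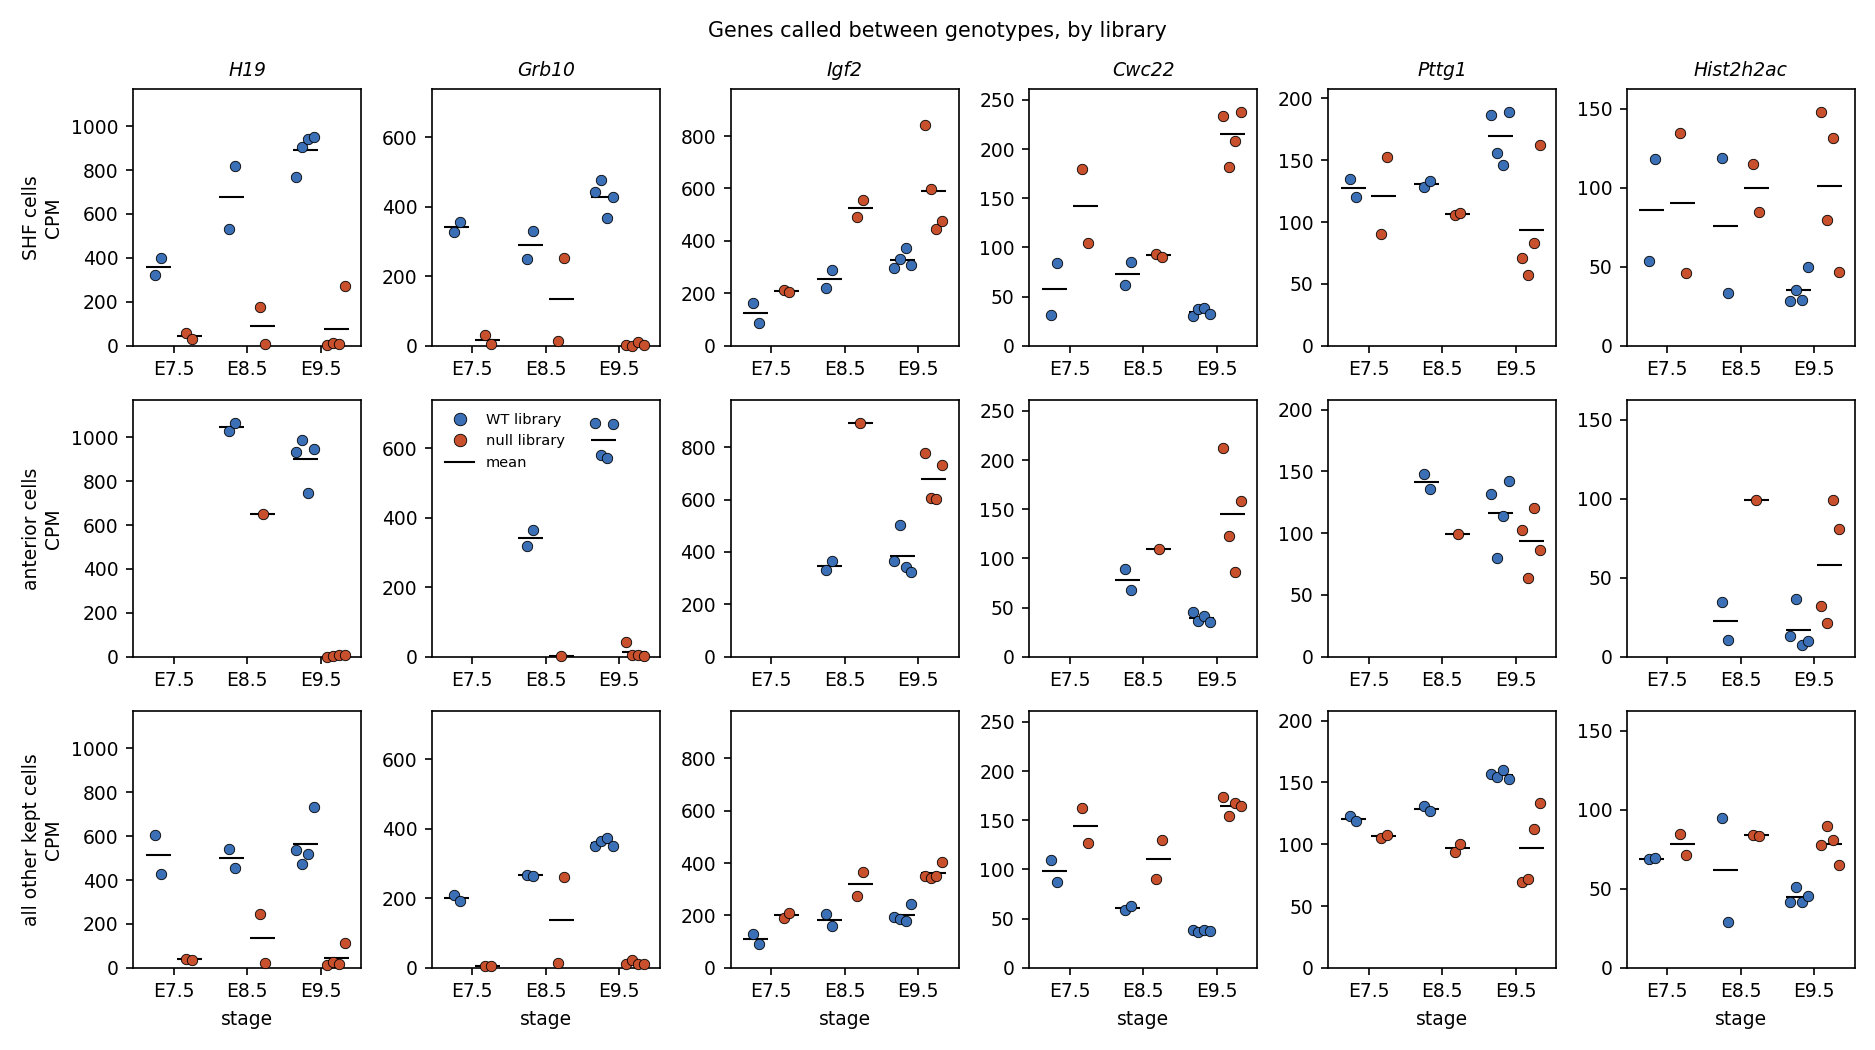
CPM (y axis) of H19, Grb10, Igf2, Cwc22, Pttg1 and Hist2h2ac (columns) in SHF cells, anterior cells and all other kept cells (rows) by stage (x axis), with 1 point per library (blue WT, red null; anterior libraries of at least 5 cells) and a line at the group mean. Cwc22 at E9.5 lies at 182 to 237 CPM in null and 30.7 to 38.2 in WT SHF cells, and 1 null SHF library has an H19 level of 274 CPM beside 5.23 to 10.5 in the others.

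In the remaining cells of the same libraries, 3 of the 6 genes also passed. There the null to WT difference over the 6 libraries was -4.87 ± 0.33 for H19, -4.61 ± 0.34 for Grb10, and 2.12 ± 0.05 for Cwc22, which were called, and 0.84 ± 0.10 for Hist2h2ac, -0.89 ± 0.19 for Pttg1 and 0.43 ± 0.20 for Hist1h3e, which were not. Whether the SHF effect differed from that of other cells was tested with library as a block. Those cells include erythroid cells, which the paper reports as underrepresented among null cells at E9.5, and the part of this was not tested. Of 14040 genes, 6 had a higher effect (0.0427%) and 18 a lower one (0.128%) in SHF cells. H19 and Grb10 were lower by a further 2.11 ± 0.25 and 1.74 ± 0.34 on the log2 scale, but with WT A and null D included the H19 value was -0.25 and not called, and without null B the Grb10 value was -0.92 and not called. Of 13 genes of the posterior second heart field list, 2 had a higher effect and none a lower one, with a median of 0.33 beside -0.006 over all genes. These were Aldh1a2 (higher by 1.02 ± 0.21) and Foxf1 (1.02 ± 0.20). Aldh1a2 was 38.4, 33.1, 53.5 and 58.9 CPM in WT and 124, 94.7, 83.0 and 29.9 in null SHF cells at E9.5, where its own difference was 0.97 ± 0.21 (adjusted p = 0.053) and null D lay below the WT libraries. Foxf1 was 74.2, 42.8, 142 and 75.5 CPM in WT and 102, 162, 105 and 159 in null SHF cells (0.44 ± 0.44, adjusted p = 0.98), and differed by -0.49 ± 0.24 in the other cells. With WT A and null D included, neither effect was called (0.79 for Aldh1a2 and 0.82 for Foxf1), and both were also lost without any 1 of several libraries.

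Foxe1, a thyroid and pharyngeal endoderm factor, was 0, 0, 0 and 16.7 CPM in WT and 0 in all null SHF libraries, and Atoh1, a neural factor, 0, 0, 0 and 13.3 against 0. Both signals came from 1 library, WT D, where the summed level of 12 pharyngeal endoderm markers was 214 CPM against 56.4 to 73.3 in the other WT and 36.5 to 70.7 in the null SHF libraries. The neuronal tubulin Tubb3 was 20.5, 11.7, 35.1 and 40.0 CPM in WT and 15.7, 3.01, 12.6 and 8.30 in null cells (an effect lower by 2.18 ± 0.32 on the log2 scale than in other cells, adjusted p = 0.062 without WT D). Without WT D, 8 genes were called and 5 of the 24 were among them, and limma-voom called none (842 genes with an unadjusted p under 0.05, 701 in the edgeR fit). Summed neural crest markers were 107 to 117 CPM in WT and 76.3 to 113 in null SHF cells, and summed endothelial markers 66.5 to 200 and 17 to 60.8.

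Whether the genotype effect changed with stage was tested in the E8.5 and E9.5 SHF libraries. Of 8051 genes, 2 had a higher effect at E9.5 (0.0248%) and 1 a lower one (0.0124%). The effect on H19 was lower at E9.5 by 5.01 ± 0.36 and that on Cwc22 higher by 2.23 ± 0.34. Golga3, a Golgi structural protein, was 150 and 104 CPM in E8.5 WT and 27.4 and 64.0 in null libraries, but 40.9, 35.0, 38.2 and 38.9 in E9.5 WT and 47.0, 42.1, 39.6 and 124 in E9.5 null libraries, an effect higher by 2.40 ± 0.44. E8.5 null A is the only null library of its stage in that fit, and with libraries of at least 5 cells the H19 and Golga3 calls were lost (-1.13 and 2.18, adjusted p = 0.99 for both) while Cwc22 held (2.26, adjusted p = 8.8e-05). Cwc22 in SHF cells was 61.3 and 85.2 CPM in E8.5 WT and 93.3 and 90.2 in null libraries, where at E9.5 it was 30.7 to 38.2 and 182 to 237.

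The atlas stage, the collection day of the most alike atlas cells, was compared between genotypes. At E7.5 SHF cells mapped to day 7.5, 7.75 and 8.0 in 19.8%, 31.7% and 48.5% of cells. At E8.5 the largest shares were 29.5% at day 8.0 and 30.7% at day 8.25, and at E9.5 20.9% mapped to day 8.0, 26.6% to day 8.25 and 18.6% to day 8.75, with 6.78% at day 9.25 and 1.69% at day 9.5. E9.5 SHF cells thus mapped mostly to younger atlas cells, but the paper used only atlas stages from E7.5 to E9.5. No older stage could be reached, so this direction does not measure how mature the cells were. Library means at E9.5 were 8.57, 8.51, 8.38 and 8.42 days in WT and 8.59, 8.32, 8.44 and 8.38 in null SHF cells. Null minus WT was 0.0097 days at E9.5 over the 6 larger libraries (exact permutation test, two-sided p = 0.90, where 0.10 is the smallest possible) and 0.034 days when permuted within stages over 11 libraries (exact p = 0.42, smallest possible 0.0083). In anterior cells the difference was -0.016 days at E9.5 (exact permutation p = 0.94, smallest possible 0.029) and 0.026 days within stages (exact p = 0.76).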

How the data were processed

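Single-cell libraries (10x 3′ chemistry) of sorted tdTomato-positive and tdTomato-negative cells were mapped to mm10 with Cell Ranger by the authors. The deposited matrix holds raw UMI counts per gene and cell after the authors' filters (at least 10000 UMIs per cell, and limits on genes and on mitochondrial and ribosomal UMIs). Per the file headers, the cell table gives the mitochondrial share in percent, and the label score as a fraction, the share of the 25 nearest atlas cells with the transferred label. Doublet calls (3395, scds hybrid score) and 596 WT cells with a tomato UMI were left out. Of 29453 genes, 8178 were left out before testing, and Stat3 and other genes are matched by symbol. The paper left imprinted genes out of its differential tests. They were kept here, among them H19, Grb10, Igf2, Phlda2, Cdkn1c, Dlk1 and Mest.

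Counts were summed per library and label and tested in R 4.3.3 with edgeR 4.0.16 (quasi-likelihood test, expression filter, TMM factors, robust), Benjamini-Hochberg adjusted. Calls need an adjusted p under 0.05 and a log2 change above 1. The SE of edgeR values was derived as the absolute log2 change over the square root of the F statistic. It is approximate and can understate counting error where a group holds few UMIs. The E9.5 genotype, stage-interaction and E9.5 against E8.5 SHF fits used libraries with more than 15 cells of the label. The E7.5, E8.5 and anterior comparisons used at least 5. Shares of cell types (at least 20 cells) were tested with the same tool on cell counts. limma 3.58.1, DESeq2 1.42.0, thinning to 10000 UMIs, score over 0.5, no filter, other factors and leaving out each library were alternatives. Scripts were tested on simulated data. Figures used matplotlib 3.10.9.

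SHF libraries held 222658 to 2798139 UMIs, and intervals and floors of 3 counts cover counting error only. Library names match no sample label, so group and stage come from the cell table's gate and stage columns, and letters only name libraries. Named genes were chosen from Stat3, Isl1, Tbx1, Fgf10, up to 10 called genes per direction without overlap and the called members of the gene lists (otherwise up to 4), and not every gene so chosen is printed. Any gene named outside this rule was chosen after its values were seen. Cells and gene lists were chosen with earlier results of these data known.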

Additional observations from a re-analysis of the deposited data

Results flagged for a closer look

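Libraries that stood apart from the other 3 of their E9.5 group were sought in 144 sets of 4 libraries (the genes with printed values and the marker lists), and 15 were found. Chance gives about 1 in 20, a rate that does not apply here to genes printed because 1 library stood out. In SHF cells, E9.5 WT D stood high for the pharyngeal endoderm list (214.4 summed CPM), Slc2a3 (31.1 CPM), Foxe1 (16.66) and Atoh1 (13.33), and E9.5 WT C for the endothelium list (200.1). E9.5 null D stood high for H19 (273.8) and Golga3 (124.4). In anterior cells, the endothelium list stood high in WT C (147.9) and null B (123.2), the neural crest list (171.4) and Kif20b (73.44) in WT B, the somitic and cranial mesoderm list (250.8) and Grb10 (41.79) in null A, and Stat3 in null D (2.887), while Ldha was low in null A (1045). That Stat3 value is 1 UMI in 9 cells beside none in the other null libraries, below the floor of 3 counts.

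The genotype effect in SHF cells differed between E9.5 and E8.5 for H19 (-5.008), Cwc22 (2.229) and Golga3 (2.401), all as log2 differences tested by interaction. At E9.5 it differed from that of the other cells of the same libraries for 24 genes. It was lower for Atoh1 (-11.97), Foxe1 (-11.61), Nhlh2 (-4.16), Cyp26a1 (-3.823), Mfng (-3.477), Etv2 (-2.831), Tfap2b (-2.664), Lmo2 (-2.621), Palm3 (-2.452), Dcx (-2.312), Tubb3 (-2.176), H19 (-2.109), Nefm (-2.01), Grb10 (-1.739), Elavl4 (-1.604), Fam110a (-1.414), Gadd45g (-1.187) and Trp53i11 (-1.091). It was higher for Foxf1 (1.016), Aldh1a2 (1.022), Blvrb (1.547), Fech (2.112), Tns1 (2.419) and Cxcl14 (2.907). These effects are relative to the other cells, which include erythroid cells that the paper reports as underrepresented among null cells at E9.5. A higher effect is thus not by itself a higher level in null SHF cells, and the part of this make-up was not tested. For Atoh1 and Foxe1 the fitted size depends on the prior count, since all UMIs were in WT D.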

How the results depend on the processing

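The paper describes each embryo pool as giving a WT and a null sample, and it had the pool in its models. No paired analysis was possible here because library names match no sample label, so the pairs could not be identified. The genotype tests therefore leave the pairing out. The alternative of more than 50 cells per library could not be run. With DESeq2 the counts of called genes were 2 (null against WT, SHF E7.5), 0 (SHF E8.5), 3 (anterior E9.5), 169 (SHF WT E8.5 against E7.5), 22 and 18 (SHF WT and null E9.5 against E8.5), and 45 and 23 (anterior WT and null). With no filter they were 6 (SHF E8.5), 27 (SHF E9.5), 26 (anterior E9.5), 211 and 117 (SHF WT and null E9.5 against E8.5). With at least 5 cells per library they were 3 (SHF E9.5), 143 (SHF null E9.5 against E8.5), 1 (stage interaction) and 10 (SHF against other cells), and with both that and a score over 0.5 they were 3, 60 (SHF WT E9.5 against E8.5) and 108 (SHF null). With E8.5 null B in place of null A and at least 5 cells, 215 genes were called (SHF null E9.5 against E8.5) and H19 changed sign (3.17, not called). limma-voom gave 0 for SHF against other cells. The settings with at least 5 cells, a score over 0.5 or E8.5 null B in place of null A were chosen after seeing the data.

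Leaving out 1 library gave counts of 4 to 17 (SHF E7.5), 0 to 37 (SHF E8.5), 4 to 12 (SHF E9.5), 3 to 7 (anterior E9.5), 73 to 318 and 145 to 423 (SHF WT and null E8.5 against E7.5), 40 to 134 (SHF WT E9.5 against E8.5), 26 to 114 (anterior WT) and 8 to 29 (SHF against other cells). Log2 values ranged from -2.08 to 0.82 for Hand1 (null against WT, E7.5), -0.40 to 0.03 for Isl1 and -0.44 to 0.13 for Tbx1 (E9.5), -0.34 to 0.31 for Isl1 (WT E8.5 against E7.5), -0.59 to 0.03 for Fgf10 (WT E9.5 against E8.5) and -0.66 to 1.80 for Nes (null E8.5 against E7.5). Abundance differences ranged from -0.24 to 0.42, -0.10 to 0.58 and -0.10 to 0.48 for SHF cells (E8.5, E9.5 and their difference), and -1.03 to 0.47, -0.21 to 0.41 and -0.55 to 1.18 for anterior cells. Atlas stage differences ranged from -0.063 to 0.076 days (SHF E9.5), -0.092 to 0.064 (anterior E9.5) and -0.016 to 0.066 (anterior within stages).

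Values near 0 changed sign for Tbx1 (SHF E9.5, thinned, 0.0497), Isl1 (WT E8.5 against E7.5, DESeq2, -0.0099), and the SHF atlas stage with at least 5 cells (-0.040 days) and anterior atlas stage by medians (-0.031 days). Anterior abundance changed sign at E8.5 with library totals (0.013), all 16 libraries in 1 fit (0.031) and extraembryonic types left out (0.029), at E9.5 with DESeq2 (0.043), library totals (0.058) and WT cells with a tomato UMI kept (0.040), and in its stage difference with DESeq2 (0.076) and library totals (0.042). As means over cells, Fgf10 at E8.5 was 42.8 (WT) and 33.8 (null) CPM and Stat3 0 (null). Without thinning, shares with a UMI in order of stage were 79.2%, 70.5% and 75.1% (Isl1), 69.3%, 77.3% and 74.6% (Tbx1) and 25.7%, 43.2% and 46.9% (Fgf10) in SHF cells, and in anterior cells 75% and 74.4% (Isl1), 61.5% (Tbx1, E9.5) and 47.7% and 39.7% (Fgf10). Of the values of named genes under the alternatives, 2367 kept direction and side of the threshold, 661 fell below it, 1 passed it and 10 changed sign. The causes were not tested. With 5 to 66 SHF cells per library, low genes such as Stat3 rest on a few UMIs.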
